A study of Mus musculus with 10 samples.

Results

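The Notch genes followed here are the 4 receptors Notch1 to Notch4, the 3 ligands Jag1, Jag2 and Dll4, and the 3 target genes Hes1, Hey1 and Heyl. They were taken by name as a fixed list of 10 among 23924 usable gene symbols, and all 10 passed the filter on low values in both tables. The libraries came from mouse pancreatic tumours of 2 models, labelled KrasT and MycT, transplanted orthotopically into athymic nude mice, which lack a thymus. Tumours of the doxycycline groups came from hosts that drank doxycycline at 100 ug/ml with 2.5% sucrose for 2 weeks (day 14), and untreated tumours were labelled day 0. There were 3 doxycycline and 3 untreated KrasT tumours and 2 doxycycline and 2 untreated MycT tumours, 10 libraries in all. The study's title concerns tumour cells without their oncogenic driver, but the labels give neither the promoter nor the construct of the transgenes, and they do not say how many lines or clones were transplanted. They name no sucrose for untreated hosts, so effects of doxycycline itself, of sucrose and of losing the oncogene cannot be told apart.

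Notch signalling passes between touching cells. A ligand on one cell pulls on a receptor of its neighbour, the receptor is cut first by an ADAM protease and then by gamma-secretase, and the released intracellular part enters the nucleus, where it joins RBPJ and Mastermind proteins and switches on genes of the Hes and Hey families. In the pancreas, Hes1 is known for holding progenitors undifferentiated and for its return when acinar cells turn ductal. In vessels, Dll4 and Notch4 are known from endothelial cells, and Notch3 and Heyl from the mural cells, the pericytes and smooth muscle that wrap them.

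Values are FPKM, which divide fragments by gene length and library size, so levels of different genes can be set side by side. The tables give no read totals. Relative depth was estimated as the most frequent ratio between 2 libraries over genes above 0 and under 0.3 FPKM in both. It placed the KrasT libraries at 0.973 to 1.53 times the depth of untreated replicate 3. The MycT libraries were at 0.671 to 1.08 times that of the untreated library without a number. The summed FPKM of all genes split by treatment, with 513949 to 569272 in KrasT doxycycline libraries against 789672 to 1018968 in untreated ones, and 546008 and 557227 in MycT doxycycline libraries against 1126800 and 1517332 in untreated ones. Rn45s, a ribosomal RNA precursor, was at 17238 FPKM in KrasT doxycycline replicate 1 and 20880 FPKM in MycT doxycycline replicate 2, and at most at 2231 FPKM elsewhere. Whole tissue was extracted, and the mix of cells differed between libraries. Epcam, an epithelial surface protein, was at 26.1, 215 and 143 FPKM in KrasT doxycycline replicates 1 to 3, against 7.22, 375 and 530 FPKM in the untreated ones. For Epcam, untreated replicate 1 of KrasT thus stood far below its group, and values without it are given where they differ. Not every ductal marker followed: Sox9 was at 21.4, 20.6 and 12.5 FPKM in untreated replicates 1 to 3. Other libraries were also low for Epcam in their group. These were KrasT doxycycline replicate 1, and MycT untreated replicate 2 with 68.3 FPKM, against 392 FPKM in the untreated library without a number. The summed level of 17 endothelial markers was 200 to 452 FPKM in KrasT doxycycline libraries and 63.1 to 84.7 FPKM in untreated ones. In MycT it was 139 and 323 FPKM after doxycycline, against 61.5 and 121 FPKM untreated. The sum of 11 pericyte and smooth muscle markers was 299 to 409 FPKM in KrasT doxycycline libraries and 55.6 to 223 FPKM in untreated ones, and in MycT 303 and 324 FPKM, against 47.6 and 177 FPKM. The sum of 8 fibroblast markers was 3781 to 9146 FPKM in KrasT doxycycline libraries and 286 to 650 FPKM in untreated ones, and in MycT 1621 and 2355 FPKM, against 34.1 and 417 FPKM. These 3 sums were thus higher in every doxycycline library of a model than in its untreated libraries. None of the genes in these lists was at 0 in any library. The 10 macrophage markers summed to 1774 to 6757 FPKM in KrasT doxycycline libraries, against 209 to 1576 FPKM untreated. In MycT the macrophage sums overlapped, with 3022 and 6691 FPKM after doxycycline, against 1557 and 3722 FPKM. The 10 ductal markers, none at 0, summed to 297 to 1859 FPKM in KrasT doxycycline libraries and 2385 to 18660 FPKM in untreated ones, and in MycT to 1983 and 918 FPKM, against 484 and 1346 FPKM. The 6 adipocyte markers were also higher in every doxycycline library, with 1670, 38.8 and 21.3 FPKM in KrasT, against 0.652, 3.16 and 0.964 FPKM, and 151 and 676 FPKM in MycT, against 1.47 and 1.26 FPKM. The 6 islet markers summed to 39.8 to 7472 FPKM in KrasT doxycycline libraries and 0.187 to 67.5 FPKM in untreated ones, which overlap, and in MycT to 21.5 and 691 FPKM, against 18.2 FPKM and all 6 at 0 in untreated replicate 2. Acinar and skeletal muscle marker sums overlapped between the KrasT groups.

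The first comparison asks how the Notch genes differ between doxycycline and untreated KrasT tumours. Notch3 and Heyl were higher after doxycycline, on average 5.51 and 4.08 times the untreated level, and 9.70 and 7.89 times that level without untreated replicate 1. Dll4 and Jag1 were lower in every doxycycline library than in every untreated one but did not pass the test, and Notch1, Notch2 and Notch4 had changes within their errors. With limma on log2(FPKM + 1), 2 of the 10 genes rose and 0 fell at a Benjamini-Hochberg adjusted p of 0.05, where 16.7% of all 12696 tested genes were called, 8.46% higher and 8.25% lower. At an unadjusted p under 0.05 there were 3 (Notch3, Heyl and Dll4), against 34% of all genes. The count of 2 in 10 is near its background, so it is not a result particular to these genes. The KrasT filter asked for an FPKM of 1 in 3 or more libraries. On their untreated libraries alone, Notch3 and Heyl would not have passed it. Their rises are thus tied to how they entered the test. Of the genes called in KrasT, 1074 were higher and 1047 lower, and with median-ratio scaling the split was 1150 higher to 701 lower.

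Notch3, the receptor of mural cells, was at 6.99, 2.32 and 5.63 FPKM in KrasT doxycycline replicates 1 to 3, against 1.68, 0.720 and 0.306 FPKM in untreated replicates 1 to 3. All 3 doxycycline values lay above all untreated ones, with replicate 2 the lowest of its group. On the log2 scale the change was 1.62 ± 0.43 (SE, limma adjusted p = 0.0464). Like all changes below it is of FPKM + 1, which understates the change of low genes. This call was close to the threshold, and with single libraries taken out in turn it was kept in 2 of 6 fits. The adjusted p was 0.116 without doxycycline replicate 1, 0.162 without doxycycline replicate 3, 0.125 without untreated replicate 2 and 0.143 without untreated replicate 3.

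The 250 bases upstream of the RefSeq start of Notch3, and of Dll4, the ligand described below, show the promoters of the receptor that rose and of a ligand that was lower. Both are read 5′ to 3′ on the gene's strand, from the GRCm38.p6 table, whose build differs from the mm9 build of the expression values. Notch3 lies on the minus strand at chr17:32166891-32167140 and Dll4 on the plus strand at chr2:119325534-119325783.
Notch3: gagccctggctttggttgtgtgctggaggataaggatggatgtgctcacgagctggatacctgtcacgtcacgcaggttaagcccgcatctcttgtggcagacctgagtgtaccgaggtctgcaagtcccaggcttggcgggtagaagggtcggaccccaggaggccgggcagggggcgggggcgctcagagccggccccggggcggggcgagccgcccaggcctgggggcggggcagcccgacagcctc
Dll4: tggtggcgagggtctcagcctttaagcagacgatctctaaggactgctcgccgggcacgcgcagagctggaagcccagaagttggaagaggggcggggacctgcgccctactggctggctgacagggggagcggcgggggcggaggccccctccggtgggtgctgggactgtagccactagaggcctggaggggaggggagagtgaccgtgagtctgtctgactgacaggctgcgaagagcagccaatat
No letters are in capitals because the RBPJ core motif TGGGAA was not found on either strand in the 300 bases searched around either start, nor in those of Notch1, Notch2, Notch4, Jag1 and Jag2. It occurred in 25.6% of 32851 promoters of the same length. The printed bases of Notch3 and Dll4 hold 68.8% and 65.6% G and C. Promoters of Hes1, Hey1 and Heyl are not shown.

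Heyl, a target gene that codes for a transcriptional repressor, was at 6.93, 3.90 and 7.93 FPKM in KrasT doxycycline replicates 1 to 3 and at 3.01, 0.882 and 0.702 FPKM in the untreated ones. The groups did not overlap, and doxycycline replicate 2 was again the lowest of its group. Heyl changed by 1.58 ± 0.42 on the log2 scale (SE, limma adjusted p = 0.0468). Of the 6 fits with a library taken out, its call was kept in 1, the fit without untreated replicate 1. The adjusted p of Heyl was 0.116, 0.0686 and 0.168 without doxycycline replicates 1, 2 and 3, and 0.134 and 0.142 without untreated replicates 2 and 3. In 1 limma fit over all 10 libraries, which shares 1 estimate of the spread, Notch3 and Heyl passed in KrasT with adjusted p of 0.0274 and 0.0323, where 17% of 12073 genes were called, 7.94% higher and 9.09% lower. Both calls were lost with a pseudocount of 0.1 (adjusted p 0.0540 for Notch3 and 0.0539 for Heyl), without a filter (0.132 and 0.130) and under quantile normalization (0.166 and 0.113). Under median-ratio scaling their changes were 1.70 and 1.68, with adjusted p of 0.0428 and 0.0404.

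The mural marker sum was higher in the same libraries as Notch3 and Heyl. In KrasT 4 of 11 mural markers were called higher and 0 lower, against 8.46% of all tested genes called higher. Per 100 FPKM of the 11 pericyte and smooth muscle markers, Notch3 had 1.71, 0.632 and 1.88 FPKM in KrasT doxycycline replicates 1 to 3, against 0.756, 1.30 and 0.344 FPKM in the untreated ones. These ratios overlapped, as did those of Heyl, with 1.69, 1.06 and 2.65 FPKM against 1.35, 1.59 and 0.788 FPKM. The part that the number of mural cells plays in the 2 rises was not tested. In whole tissue, a change in the number of cells of a type and a change in RNA per cell cannot be told apart. Des, one of these markers, is also a skeletal muscle gene. It was at 30.3, 173 and 31.1 FPKM in doxycycline replicates 1 to 3, against 121, 4.09 and 2.64 FPKM in the untreated ones, so it was high in 1 library of each group. Kcnj8 also overlapped, with 6.94, 8.68 and 5.08 FPKM against 8.92, 6.32 and 3.41 FPKM. So did Cspg4, with 5.02, 1.14 and 1.62 FPKM against 1.19, 0.435 and 0.389 FPKM. The other mural markers were higher in every KrasT doxycycline library than in every untreated one. The sums of fibroblast, endothelial and macrophage markers were higher in the same libraries too. Of these markers 7 of 8, 12 of 17 and 3 of 10 were called higher in KrasT, against 8.46% of all tested genes. Their part in the rises was not tested.

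The other receptors moved little in KrasT. Notch1 was at 6.53, 5.57 and 8.12 FPKM in doxycycline libraries and at 5.96, 6.95 and 6.59 FPKM in untreated ones, a log2 change of 0.03 ± 0.25 (SE, limma adjusted p = 0.939). Notch2 was at 15.7, 6.97 and 9.57 FPKM against 9.21, 9.27 and 7.26 FPKM, with doxycycline replicate 1 the highest of all KrasT libraries (0.23 ± 0.33 SE, limma adjusted p = 0.664). Notch4 was at 2.83, 2.53 and 5.79 FPKM against 1.37, 6.80 and 2.70 FPKM (0.14 ± 0.50 SE, limma adjusted p = 0.870). For these 3 receptors the groups overlapped. The signs of Notch1 and Notch4 turned under quantile normalization, so no direction is given for either.

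The ligands had negative changes in KrasT, but none passed the test. Dll4, best known from sprouting endothelium, was at 3.98, 2.88 and 4.50 FPKM in doxycycline replicates 1 to 3 and at 5.08, 11.6 and 13.6 FPKM in the untreated ones. All doxycycline values lay below all untreated ones, and untreated replicate 1 was the nearest to them. The log2 change of -1.13 ± 0.39 (SE) had a limma adjusted p of 0.0927, and without untreated replicate 1 it was -1.52 with an adjusted p of 0.0105. Dll4 moved against the endothelial markers. Per 100 FPKM of the 17 endothelial markers it had 1.11, 1.44 and 0.996 FPKM in doxycycline libraries, against 5.998, 18.5 and 19.3 FPKM in untreated ones. The levels of these markers went the other way, with 12 of 17 called higher in KrasT and 0 called lower. Over all tested genes 8.46% were called higher and 8.25% lower. Sox17, one of the 17, overlapped, with 2.83, 4.91 and 6.19 FPKM after doxycycline and 0.444, 16.8 and 6.82 FPKM untreated. A lower ratio was not particular to Dll4. Notch4 had 0.792, 1.27 and 1.28 FPKM per 100 FPKM of these markers after doxycycline, against 1.62, 10.8 and 3.82 FPKM untreated.

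**Figure D1:**
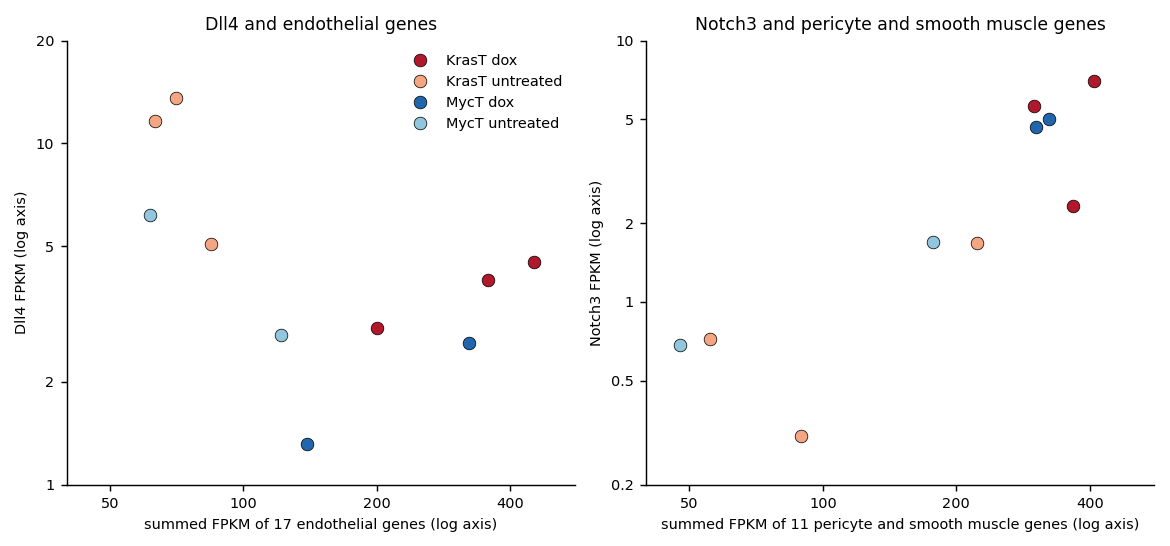
FPKM of Dll4 against the summed FPKM of 17 endothelial genes (left) and of Notch3 against the summed FPKM of 11 pericyte and smooth muscle genes (right), log axes, 1 point per library, coloured by model and treatment. Doxycycline libraries lie toward the lower right for Dll4, with 1.32 to 4.50 FPKM, and at the upper right for Notch3, with 2.32 to 6.99 FPKM. For Dll4, the untreated MycT library without a number lies close by, at 2.75 FPKM and an endothelial sum of 121 FPKM.

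Jag1, a Serrate-type ligand, was at 10.9, 7.92 and 8.97 FPKM in KrasT doxycycline replicates 1 to 3, against 113, 20.3 and 13.7 FPKM in untreated replicates 1 to 3. The groups did not overlap, but untreated replicate 1 was far above the rest. The log2 change was -1.69 ± 0.73 (SE, limma adjusted p = 0.155), and without that library it was -0.80 (adjusted p = 0.0680). Jag2, the other Serrate-type ligand, ran opposite in that library: it was at 2.77, 3.26 and 4.37 FPKM after doxycycline and at 0.682, 12.5 and 11.5 FPKM untreated. Untreated replicate 1 was thus the lowest of the 6 for Jag2 and the highest for Jag1. The change of Jag2 was -0.58 ± 0.79 (SE, limma adjusted p = 0.650), and without untreated replicate 1 it was -1.56 with an adjusted p of 0.00951.

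The remaining targets showed no call in KrasT. Hes1, the most abundant of the 10 genes in all 4 group means, was at 22.3, 44.0 and 31.7 FPKM in doxycycline libraries and at 64.3, 60.4 and 38.2 FPKM in untreated ones, so the groups overlapped (log2 change -0.73 ± 0.34 SE, limma adjusted p = 0.179). Hey1, a repressor of the same family as Heyl, was at 5.79, 2.34 and 2.65 FPKM after doxycycline and at 26.8, 0.895 and 1.51 FPKM untreated. One library, untreated replicate 1, set its direction. The log2 change of Hey1 was -0.22 ± 0.99 (SE, limma adjusted p = 0.897), and 0.999 without that library (adjusted p = 0.0859).

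Taking out untreated replicate 1 brought the calls in KrasT to 4 of 10, with Notch3 and Heyl higher and Dll4 and Jag2 lower, where 33.3% of all genes were then called, 15.6% higher and 17.6% lower. The groups did not overlap for 4 of the 10 genes, Notch3 and Heyl higher and Jag1 and Dll4 lower, against 39.8% of all genes tested, 16.8% higher and 23% lower. Both shares are close to what all genes showed. The median change of the 10 genes was -0.09, and that of all genes was -0.10. Median-ratio scaling moved the median of all genes to 0.01, a shift that applies to every gene of the table.

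**Figure D2:**
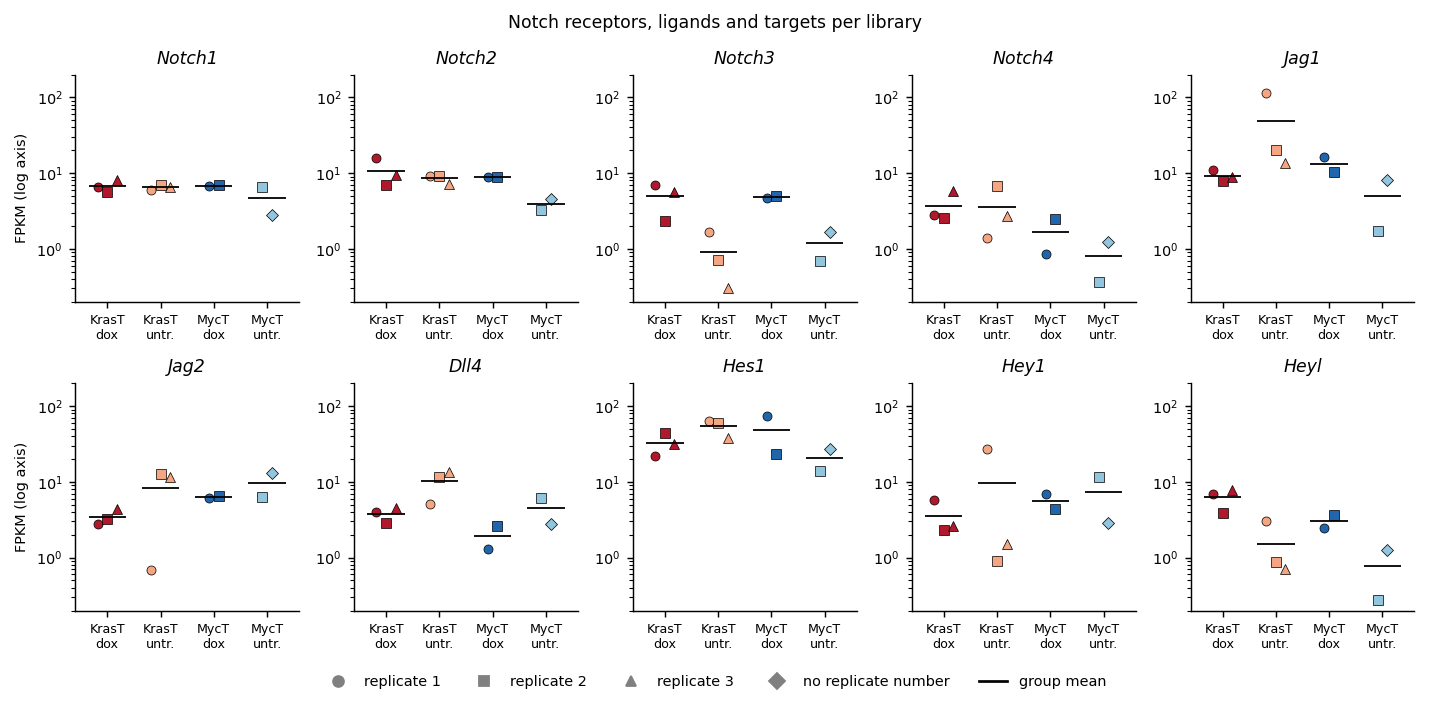
FPKM of each of the 10 genes (log axis) in every library, by model and treatment, with symbols for replicates and a line at the group mean. In KrasT, Notch3 and Heyl lie higher in all 3 doxycycline libraries, and untreated replicate 1 stands apart for Jag1 (113 FPKM), Jag2 (0.682 FPKM) and Hey1 (26.8 FPKM).

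The second comparison sets doxycycline against untreated MycT tumours, 2 libraries each. Values of Notch1, Notch2, Notch3, Jag1 and Heyl were higher in both doxycycline libraries than in both untreated ones, and Dll4 was lower. None of the 10 genes passed the test. Limma called 0 of 10, with 3 at an unadjusted p under 0.05 (Notch2, Notch3 and Heyl). Of all 12834 genes, 0.039% were called, 0.00779% higher and 0.0312% lower. Without adjustment 33.4% of them were under 0.05, so 3 in 10 is near the background. In the fit over all 10 libraries limma again called 0 of the 10 in MycT, where 20.4% of genes were called, 8.11% higher and 12.3% lower. Groups without overlap were found for 6 of the 10 genes, 5 higher and 1 lower, against 64.7% of all genes, 31.9% higher and 32.8% lower, so this count is no more than the background. The median change of the 10 genes in MycT was 0.80, against 0.04 for all genes, with 7 of 10 changes positive.

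Notch3 was at 4.66 and 5.02 FPKM in MycT doxycycline replicates 1 and 2, against 0.684 FPKM in untreated replicate 2 and 1.69 FPKM in the untreated library without a number. Both doxycycline values were close together and above the untreated ones. The log2 change was 1.46 ± 0.39 (SE, limma adjusted p = 0.0899, and 0.0658 in the fit over all libraries). Heyl was at 2.43 and 3.67 FPKM after doxycycline and at 0.279 and 1.27 FPKM untreated (1.23 ± 0.44 SE, limma adjusted p = 0.135). On their untreated libraries alone, neither Notch3 nor Heyl would have passed the MycT filter. Per 100 FPKM of mural markers, Notch3 had 1.54 and 1.55 FPKM after doxycycline, against 1.44 and 0.956 FPKM untreated. Heyl had 0.802 and 1.13 FPKM after doxycycline, against 0.586 and 0.718 FPKM untreated. In MycT neither ratio overlapped between the groups, unlike in KrasT, and the difference in this between the models was not tested. In MycT doxycycline replicate 1, Des made up 195 FPKM of the mural sum of 303 FPKM. That library also had 6423 FPKM of skeletal muscle markers. Des was at 22.2 FPKM in doxycycline replicate 2, against 0.915 and 3.24 FPKM untreated. Set against Pdgfrb alone, another mural marker, Notch3 did overlap, with ratios of 0.411 and 0.164 after doxycycline and 0.406 and 0.464 untreated.

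Notch2 was at 8.92 and 8.93 FPKM in MycT doxycycline libraries and at 3.25 and 4.52 FPKM in untreated ones, a change of 1.04 ± 0.34 (SE, limma adjusted p = 0.119). Notch1 was at 6.71 and 6.98 FPKM against 6.47 and 2.797 FPKM, so 1 untreated library was nearly at the doxycycline level (0.56 ± 0.45 SE, limma adjusted p = 0.431). Notch4, an endothelial receptor, was at 0.864 and 2.51 FPKM against 0.366 and 1.24 FPKM, and its groups overlapped (0.55 ± 0.49 SE, limma adjusted p = 0.481). Under quantile normalization the change of Notch4 was -0.04.

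Jag1 was at 16.3 and 10.3 FPKM in MycT doxycycline libraries, against 1.74 FPKM in untreated replicate 2 and 8.18 FPKM in the unnumbered one (1.48 ± 0.68 SE, limma adjusted p = 0.205). Jag2 was at 6.14 and 6.45 FPKM against 6.34 and 13.1 FPKM, with overlap (-0.48 ± 0.44 SE, limma adjusted p = 0.488). Dll4 was at 1.32 and 2.59 FPKM against 6.18 and 2.75 FPKM. The higher doxycycline value of Dll4 lay just under the lower untreated one (-0.85 ± 0.49 SE, limma adjusted p = 0.289). Per 100 FPKM of the endothelial markers, Dll4 had 0.946 and 0.803 FPKM after doxycycline and 10.04 and 2.26 FPKM untreated. The ratio was therefore lower in every doxycycline library of both models than in every untreated library, and it was computed after the values had been seen.

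Hes1 was at 74.8 and 23.2 FPKM in MycT doxycycline libraries and at 14.1 and 26.8 FPKM in untreated ones, so a single doxycycline library was above the rest (1.06 ± 0.68 SE, limma adjusted p = 0.329). Without that library, doxycycline replicate 1, the change was 0.24. The sum of 6 skeletal muscle markers was 6423 and 8.83 FPKM in MycT doxycycline replicates 1 and 2, against 7.13 and 5.08 FPKM untreated, so it was high in the same library. Their part in the Hes1 value was not tested. Hey1 was at 6.82 and 4.33 FPKM against 11.7 and 2.90 FPKM (-0.13 ± 0.66 SE, limma adjusted p = 0.916). The untreated values of Hey1 lay on both sides of the doxycycline values. With 2 libraries per group an exact two-sided permutation test can reach p = 0.333 at best, and with 3 per group p = 0.1.

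**Figure D3:**
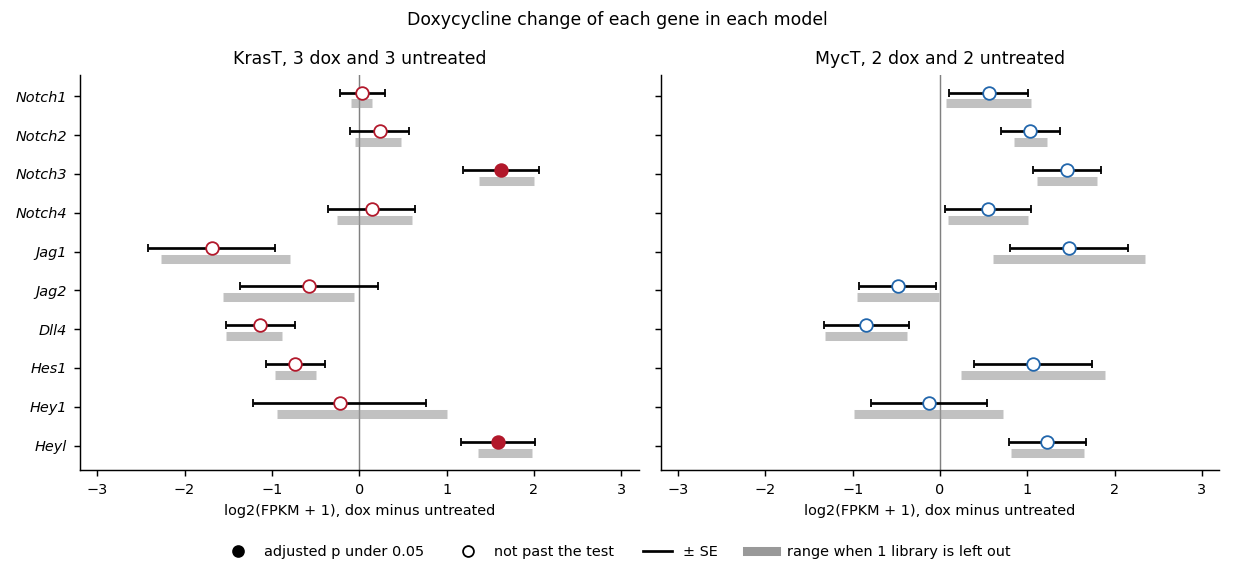
Change of log2(FPKM + 1), doxycycline minus untreated, for each gene in KrasT (left) and MycT (right), with the SE as error bar and the range over fits that left out 1 library as a grey band; filled points passed limma's adjusted p of 0.05. Only Notch3 (1.62) and Heyl (1.58) in KrasT are filled, and the band of Hey1 crosses 0 in both models.

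The change in KrasT minus the change in MycT was then tested for each gene as the interaction term of 1 limma fit over all 10 libraries. No gene of the 10 passed in limma, where 0.24% of 12073 genes were called, 0.0414% higher and 0.199% lower. An unadjusted p under 0.05 was found for 2 of the 10, Jag1 and Hes1, and for 19.9% of all genes, so this count is at the background. The largest of these differences was that of Jag1, with -3.17 ± 1.16 (SE, limma adjusted p = 0.179). Hes1 followed with -1.80 ± 0.74 (SE, limma adjusted p = 0.226). Notch3 had a difference of 0.17 ± 0.64 (SE, limma adjusted p = 0.913), Heyl one of 0.35 ± 0.65 and Dll4 one of -0.29 ± 0.64, each with an error larger than the difference.

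Levels within a library show which receptor and which ligand made up most of the transcripts. Notch1 and Notch2 together held most receptor FPKM in every library. Notch3 made up 21.9%, 13.3% and 19.3% of the summed receptor FPKM in KrasT doxycycline libraries, against 9.23%, 3.03% and 1.82% in untreated ones. In MycT it made up 22.0% and 21.4% after doxycycline, against 6.35% and 16.5% untreated. These shares do not depend on scaling between libraries, and in both models they were higher in every doxycycline library. The receptor sum itself was 32.0, 17.4 and 29.1 FPKM in KrasT doxycycline libraries and 18.2, 23.7 and 16.9 FPKM in untreated ones, so the groups overlapped. In MycT the receptor sum was 21.2 and 23.4 FPKM against 10.8 and 10.3 FPKM.

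Among the ligands, Jag1 made up 61.7%, 56.4% and 50.3% of the summed FPKM of Jag1, Jag2 and Dll4 in KrasT doxycycline libraries, against 95.2%, 45.6% and 35.3% in untreated ones. In MycT doxycycline libraries it made up 68.6% and 53.2%, against 12.2% and 34.0% in untreated ones. Jag1 exceeded Jag2 in every library except the 2 untreated MycT ones. The ratio of Jag1 to Jag2 was 3.93, 2.43 and 2.05 in KrasT doxycycline libraries and 166, 1.62 and 1.19 in untreated ones. In MycT it was 2.65 and 1.59 after doxycycline and 0.274 and 0.623 untreated. The ligand sum was 17.6, 14.1 and 17.8 FPKM in KrasT doxycycline libraries, below the 119, 44.4 and 38.9 FPKM of untreated ones, while in MycT it was 23.8 and 19.3 FPKM against 14.3 and 24.1 FPKM.

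**Figure D4:**
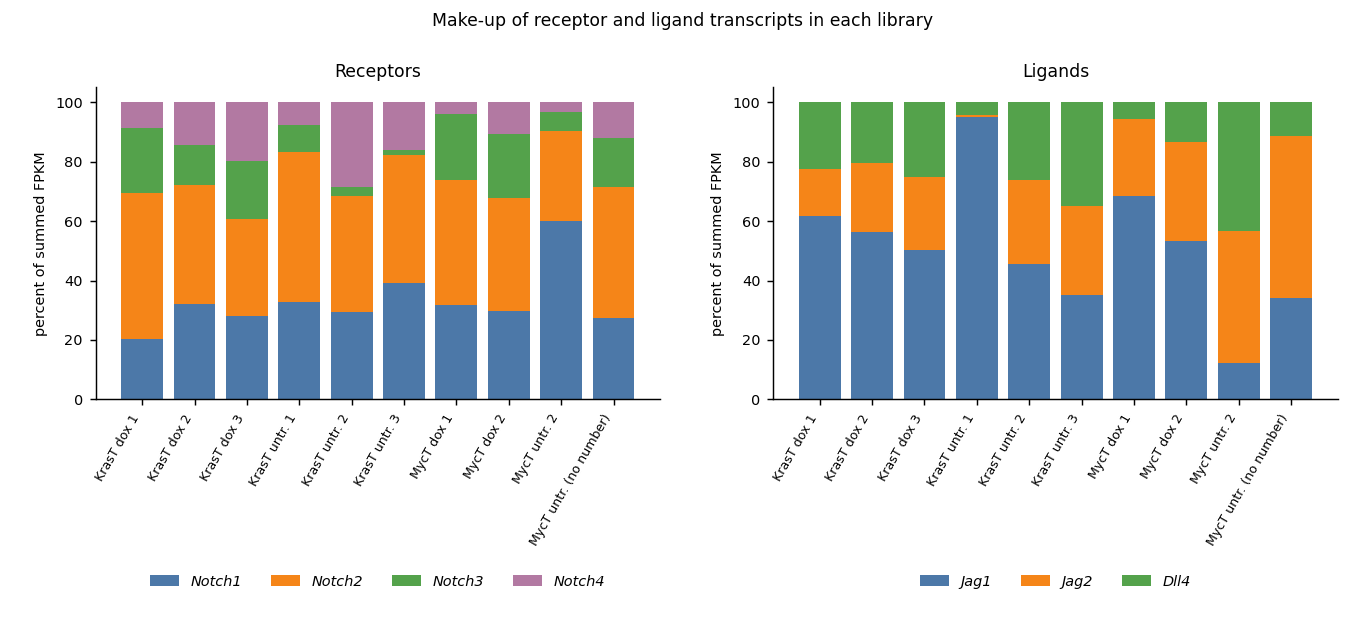
Share of each receptor in the summed FPKM of Notch1 to Notch4 (left) and of each ligand in the summed FPKM of Jag1, Jag2 and Dll4 (right), in percent, 1 bar per library. Notch3 takes 13.3% to 22.0% of receptor FPKM after doxycycline and 1.82% to 16.5% in untreated libraries, and Jag1 takes 95.2% of ligand FPKM in untreated KrasT replicate 1.

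The order of the 10 genes by mean FPKM began with Hes1 in every group. In KrasT doxycycline tumours Hes1 averaged 32.7 ± 10.9 FPKM (SD, n = 3) and was followed by Notch2 with 10.7 ± 4.46 FPKM and Jag1 with 9.26 ± 1.499 FPKM. Below Hes1, each gene in that group overlapped the next one in its range. In untreated KrasT tumours Hes1 averaged 54.3 ± 14.1 FPKM and Jag1 49.1 ± 55.7 FPKM (SD, n = 3), ranges that overlapped, and Notch3 was last with 0.903 ± 0.706 FPKM. In MycT doxycycline tumours the order was Hes1, Jag1, Notch2, Notch1 and Jag2, with no overlap between neighbours down to Jag2, and Notch4 was last with 1.69 ± 1.16 FPKM (SD, n = 2). In untreated MycT tumours Hes1 averaged 20.4 ± 9.02 FPKM, Jag2 was next with 9.74 ± 4.803 FPKM, and Heyl was last with 0.775 ± 0.702 FPKM (SD, n = 2). Levels across the 2 models come from separate tables and were not tested against each other.

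The rest of the pathway was read from 8 lists with 58 genes, of which 50 passed the filter in each model. In KrasT 4 of the 50 rose and 5 fell (background 16.7%), with a median change of -0.05, against -0.10 for all genes. In MycT 0 passed in the limma fit of that table, where 0.039% of all genes passed. An unadjusted p under 0.05 was found for 9 of the 50, below the 33.4% of all genes, and the median was 0.51, against 0.04 for all genes. In the fit over all libraries 4 rose and 0 fell in MycT (background 20.4%), while 3 rose and 4 fell in KrasT (background 17%). The genes that passed are described by their role.

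Of the 5 genes that add or extend sugars on the receptors, Mfng, the Manic fringe glycosyltransferase, rose in KrasT. It was at 13.2, 4.21 and 7.36 FPKM after doxycycline, against 1.72, 0.505 and 1.07 FPKM untreated (2.06 ± 0.43 SE, limma adjusted p = 0.0258). Mfng, too, would not have passed the KrasT filter on its untreated libraries alone. In MycT, Mfng was at 4.97 and 16.5 FPKM against 13.8 and 25.9 FPKM, with overlap. Of the 10 genes for receptor cleavage, Adam10, the protease that makes the first cut after ligand binding, fell in KrasT. Adam10 was at 32.5, 28.6 and 25.9 FPKM after doxycycline and at 78.9, 78.8 and 66.5 FPKM untreated (-1.34 ± 0.22 SE, limma adjusted p = 0.0155). All 3 doxycycline values of Adam10 were well under the untreated ones, untreated replicate 1 included.

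Of the 4 ubiquitin ligases that drive ligand endocytosis, Mib2 and Neurl1b rose in KrasT. Mib2 was at 6.72, 9.28 and 14.1 FPKM against 3.77, 2.79 and 1.92 FPKM (1.503 ± 0.35 SE, limma adjusted p = 0.0334). Neurl1b was at 1.82, 1.92 and 2.37 FPKM against 0.282, 0.244 and 0.351 FPKM (1.23 ± 0.21 SE, limma adjusted p = 0.0170), a low but tight pair of groups. It passed the KrasT filter only through its doxycycline libraries, so its rise is tied to how it entered the test. Neurl1a rose in MycT in the fit over all libraries, with 5.03 and 2.86 FPKM against 0.579 and 0.792 FPKM (1.52, limma adjusted p = 0.0300, and 0.0845 in the MycT fit). The same limit holds for Neurl1a, which passed the MycT filter only through its doxycycline libraries. Mib1, whose product is the ligase best known for activating ligands, did not pass in either model.

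In the nuclear activator complex 0 of 9 tested genes passed in KrasT, with 0 at an unadjusted p under 0.05 in limma and 0 called in the fit over all libraries. In MycT, Maml2, a Mastermind coactivator, rose in the fit over all libraries, with 5.68 and 4.37 FPKM against 1.59 and 1.09 FPKM (1.36, limma adjusted p = 0.0185, and 0.0862 in the MycT fit). Rbpj, the DNA-binding partner of all Notch receptors, had changes of -0.12 in KrasT and 0.64 in MycT that did not pass. Of 12 corepressor genes, 3 fell in KrasT: Ctbp2 (-1.36 ± 0.24 SE, limma adjusted p = 0.0173), and the histone deacetylases Hdac1 (-1.03 ± 0.22 SE, adjusted p = 0.0268) and Hdac3 (-0.98 ± 0.26 SE, adjusted p = 0.0454). Ctbp2 was at 15.2, 21.9 and 17.6 FPKM in KrasT doxycycline libraries, against 49.1, 43.0 and 51.98 FPKM in untreated ones. These 3 genes serve many repressors besides the Notch complex. Groups did not overlap for any of the 3. Over all tested genes 8.25% were called lower in KrasT. Of the 12 corepressor genes, 6 lay wholly lower in KrasT, against 23% of all genes tested. In MycT 6 of the 12 lay wholly lower and 3 wholly higher, against 32.8% and 31.9% of all genes. In the fit over all libraries Hdac1 had a limma adjusted p of 0.0631.

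Of 8 tested genes for receptor turnover and negative regulation, Dtx4, a Deltex ubiquitin ligase, rose in KrasT, with 23.9, 18.6 and 26.6 FPKM against 4.65, 9.61 and 12.1 FPKM (1.37 ± 0.37 SE, limma adjusted p = 0.0484, and 0.0508 in the fit over all libraries). In MycT, Numbl, a relative of the Notch inhibitor Numb, and Dtx3l, a ligase of the Deltex family, rose in the fit over all libraries. Numbl was at 5.23 and 10.3 FPKM against 2.28 and 1.26 FPKM (limma adjusted p = 0.0271) and Dtx3l at 9.13 and 8.98 FPKM against 0.781 and 3.21 FPKM (limma adjusted p = 0.0342). Dtx3l would not have passed the MycT filter on its untreated libraries alone. Of the 4 other target genes only Nrarp passed the filter. Nrarp codes for a feedback inhibitor of Notch and fell in KrasT, with 4.34, 3.17 and 3.44 FPKM against 10.1, 17.0 and 12.4 FPKM (-1.59 ± 0.29 SE, limma adjusted p = 0.0184). In MycT, Nrarp was at 9.99 and 5.88 FPKM against 3.17 and 5.26 FPKM (0.77 ± 0.43 SE, limma adjusted p = 0.278). Of the other ligands only Dll1 passed the filter, with a change of -0.48 ± 0.82 in KrasT and 1.67 ± 0.48 in MycT, neither past the test.

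Single libraries mattered for these calls too. When KrasT was refitted 6 times with 1 library missing, the calls of Adam10, Neurl1b and Ctbp2 were kept in 3, those of Mfng, Mib2 and Nrarp in 2, and those of Hdac1, Hdac3 and Dtx4 in 1. In KrasT the calls of Ctbp2, Hdac1, Hdac3, Mfng, Mib2 and Neurl1b did not hold under quantile normalization.

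**Figure D5:**
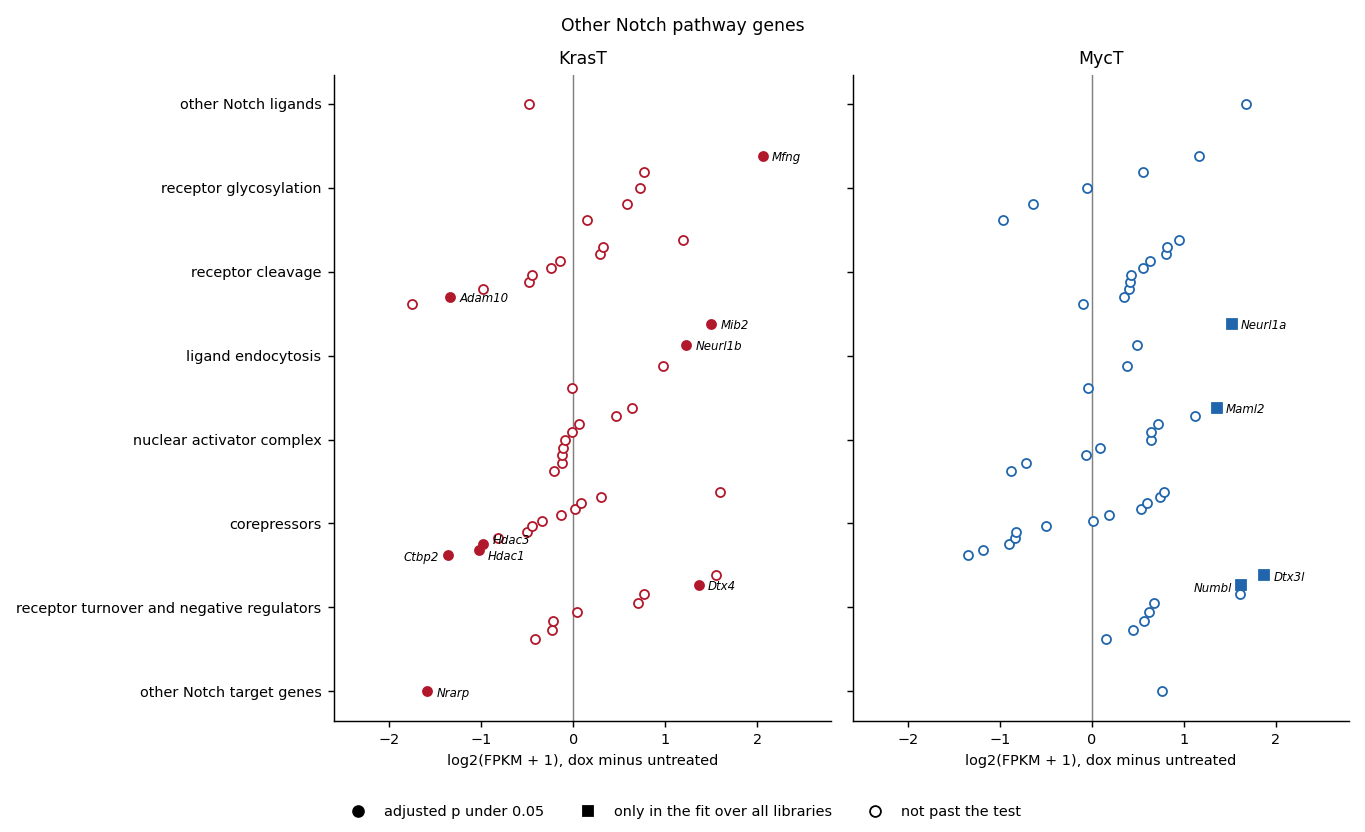
Change of log2(FPKM + 1), doxycycline minus untreated, for the 50 tested genes of 8 other Notch pathway lists in KrasT (left) and MycT (right), 1 point per gene. Filled circles passed within the model's own fit and filled squares only in the fit over all 10 libraries; 9 genes are filled in KrasT and 4 in MycT.

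For each of the 10 genes the gene with the most similar profile was sought among 11544 genes, as the smallest root mean square difference of log2(FPKM + 1) over 10 libraries after centring within each model. Each match is the closest of many by construction, and how close a match arises without a link was not tested. Gpr183 was nearest to Notch3, with a difference of 0.164 where the profile of Notch3 itself varied by 0.880. Rasal3 was nearest to Heyl (0.165, own variation 0.840) and Ptbp1 to Dll4 (0.193, own variation 0.659). Reep6 was nearest to Jag2 (0.212), Rab38 to Jag1 (0.371), Acadl to Hes1 (0.295) and Tceal8 to Hey1 (0.418). Copz1, Nlrx1 and Galnt10 were nearest to Notch1 (0.134, own variation 0.304), Notch2 (0.146, own variation 0.432) and Notch4 (0.278, own variation 0.551).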

How the data were processed

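RNA from frozen tumours was sequenced as TruSeq libraries, per the labels. The deposited tables hold FPKM, 1 column per library. Per the submitters' processing notes the authors used cutadapt, TopHat and the mm9 build. No source used here names the program behind the FPKM values, the annotation or whether strand was used. Columns were matched to samples by the number in their names. In MycT, 1 untreated column matches no label and was kept as an untreated replicate without a number. Each of the tables holds 27 entries with a date in place of the symbol, which were dropped. Every title carries a different number, so the labels give no pairing and none was used. The labels do not say whether the tumours came from separate donors or lines, so p-values measure the spread between these samples.

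Genes reaching an FPKM of 1 in 3 or more KrasT libraries, or in 2 or more MycT libraries, were tested on log2(FPKM + 1) with limma 3.58.1 under R 4.3.3. The test was two-sided, with a trended prior in eBayes and adjustment over all genes tested. The steps were tested on simulated data. The 10 genes, the pathway lists and the marker lists were chosen with earlier results of these data known. Pathway genes are named where they passed in any of these fits, or otherwise up to 2 per list by the smallest p; Rbpj, Mib1, Tle4 and Hes5 fall outside this rule and were named after their values were seen. Ratios to marker sums were added after the values were seen. Alternatives were a pseudocount of 0.1, other filters, 2 scalings, 2 spreads, a joint fit and leaving out each library. Figures were drawn with matplotlib 3.10.9.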

Additional observations from a re-analysis of the deposited data

Results flagged for a closer look

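Among the 10 genes and the other pathway genes that passed the filter in both tables, 3 lay on opposite sides in the 2 models. Every doxycycline library of these 3 lay on one side of the untreated libraries in KrasT and on the other side in MycT. Of all genes tested, 16.8% lay wholly higher and 23% wholly lower in KrasT, and 31.9% and 32.8% in MycT. The share of all genes on opposite sides was not counted, so the count of 3 is not a result particular to these genes. Jag1 was lower in KrasT and higher in MycT, and its change in KrasT minus that in MycT was -3.17 on the log2 scale (limma interaction, adjusted p = 0.179). Nrarp had the same pattern, with a difference of -2.35 (adjusted p = 0.0698). So had Tle4, a Groucho-type corepressor, at 3.83, 3.87 and 3.97 FPKM against 6.03, 5.31 and 6.55 FPKM in KrasT and 4.31 and 4.02 FPKM against 1.22 and 3.31 FPKM in MycT, a difference of -1.25 (adjusted p = 0.168). None of these differences passed the test. Hes5, a target gene that did not pass the filter and was not tested, was at 0.173, 0.121 and 0.0404 FPKM after doxycycline and listed at 0 in untreated KrasT libraries, and in MycT listed at 0 after doxycycline and at 0.0632 and 0.410 FPKM untreated.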

How the results depend on the processing

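In KrasT 2 of the 10 genes were called. The count was 2 under median-ratio scaling, robust spread, spread without a trend and the joint fit. It was 0 with a pseudocount of 0.1, 0 without a filter, 0 at a mean FPKM of at least 5, where Notch3, Notch4 and Heyl were not tested, and 0 under quantile normalization. Leaving out 1 library gave 0 to 4. In MycT and for the difference between models limma called 0 of the 10 under each alternative run. The cause of these losses was not tested, except that fewer genes were tested at the higher filter and fewer samples when a library was left out. Leaving out a MycT library leaves 1 sample in a group, which is then assumed to vary like the others. Over all genes the 2121 calls in KrasT became 1214 without a filter, 1340 at a mean FPKM of at least 5, 1078 under quantile normalization and 113 to 4223 with 1 library left out. The 5 calls in MycT became 0 without a filter, 10 at the higher filter and 0 with 1 library left out. The 29 calls for the difference became 18 with a pseudocount of 0.1, 136 without a filter, 69 at the higher filter, 17 under quantile normalization and 0 to 1522 with 1 library left out.

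No change or difference that had been called turned its sign under these alternatives. Under quantile normalization the log2 change was -0.083 for Notch1 and -0.21 for Notch4 in KrasT and -0.037 for Notch4 in MycT, and the difference of Dll4 was 0.068. With a pseudocount of 0.1 the differences of Jag2 and Hey1 were 0.058 and 0.067. With 1 library left out, the KrasT change ran from -0.090 to 0.15 for Notch1, -0.054 to 0.48 for Notch2, -0.25 to 0.61 for Notch4 and -0.94 to 0.999 for Hey1, and the MycT change of Hey1 from -0.98 to 0.73. The differences ran from -0.17 to 0.54 for Notch3, -0.86 to 0.059 for Notch4, -1.08 to 0.43 for Jag2, -0.76 to 0.18 for Dll4, -0.95 to 1.13 for Hey1 and -0.061 to 0.77 for Heyl. No paired analysis was possible because the labels give no replicate number shared between groups. The depth in reads is unknown, so no counting error can be given for low values.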
